A study of Danio rerio with 4 samples.

Results

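The cells annotated as Mesoderm progenitors are 1 of 18 clusters that were drawn from single-cell transcriptomes of the embryonic zebrafish heart. They were taken by that annotation alone and numbered 707 of 34676 annotated cells. Hearts were collected at 72 hours post fertilisation (hpf) and at 48 hpf from double transgenic embryos of 2 crosses, sqet31Et with Tg(myl7:mRFP) and sqet33mi59BEt with Tg(myl7:mRFP). In both crosses EGFP is driven by an enhancer trap in the sinoatrial or atrioventricular region and mRFP by the cardiomyocyte promoter myl7, and no group lacked the transgenes. Each of the 4 droplet libraries held the cells of 1 cross at 1 stage from a pool of many hearts, so there were 2 libraries per stage, and p-values measure the spread between these pools. The cluster held 122 cells of sqet31Et and 108 cells of sqet33mi59BEt at 72 hpf, against 294 cells of sqet31Et and 183 cells of sqet33mi59BEt at 48 hpf. The cluster thus took 1.11% and 1.101% of all annotated cells in the libraries of 72 hpf, against 4.13% and 2.72% in those of 48 hpf. Hearts were separated from other tissue by hand, and the part of remaining tissue in these shares was not tested.

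LIM homeodomain factors of the Isl family mark the second heart field, from which cells join the ends of the heart tube after it has formed, and they also mark motor and sensory neurons. The mesoderm next to the heart field lines the foregut, and in vertebrates its mesenchyme is known for Foxf, Barx1 and Nkx2/Nkx3 transcription factors, for nested Hox genes and for smooth muscle that forms under Hedgehog signals from the gut endoderm. Both sets of genes, and the genes of smooth muscle, are described here in the order regulators, signals, differentiation and proliferation.

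Levels are given as CPM, the UMIs of a gene per 1000000 UMIs in the sum over the cells of the cluster or of all the other annotated cells of the same library. The sums held 344823 and 163145 UMIs at 72 hpf and 2313184 and 1692994 UMIs at 48 hpf, so that 1 UMI is worth more CPM at 72 hpf. Per cell the median was 2181.5 and 1283 UMIs at 72 hpf and 8387.5 and 9426 UMIs at 48 hpf, while in the other cells it was 1648 and 842 UMIs at 72 hpf and 1553 and 2334 UMIs at 48 hpf. At 48 hpf 43.5% and 42.6% of the cluster's cells had over 2000 genes, close to the study's upper limit of 2500 genes per cell, against 0.820% and 0% at 72 hpf. The median mitochondrial share was 13.8% and 6.01% in the 72 hpf cells and 1.45% and 2.14% in the 48 hpf cells, and it was also higher at 72 hpf in the other cells, at 17.4% and 8.74% against 3.70% and 3.76%. No barcode of the cluster occurred in more than 1 library, whereas 109 of 34567 distinct barcodes did among all annotated cells. Values are given for sqet31Et first and sqet33mi59BEt second within a stage throughout.

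The Isl genes did not share 1 pattern over the 18 clusters. For isl2b (ENSDARG00000053499) the cluster had the highest mean, 135.9 ± 49.9 CPM (SD, n = 4 libraries), followed by Cardiac peripheral nerves with 73.7 ± 52.6 CPM, so that the ranges of the neighbours overlapped. For isl2a (ENSDARG00000003971) the cluster was again highest, with 83.7 ± 43.1 CPM, before Cardiac peripheral nerves with 42.4 ± 22.6 CPM. At 48 hpf Bulbus arteriosus had 55.04 and 53.1 CPM of isl2b and 45.04 and 53.1 CPM of isl2a. At 72 hpf it had 1.28 and 3.53 CPM of isl2b and 2.56 and 1.76 CPM of isl2a. For isl1 (ENSDARG00000004023), which in zebrafish is used for second heart field and sinoatrial pacemaker cells, the cluster was the third, with 46.0 ± 51.2 CPM, behind Cardiac peripheral nerves with 177.5 ± 113.7 CPM and Neuronal cells with 117.2 ± 99.7 CPM. The files do not pair every gene copy with its name, and isl2a and isl2b were told apart by how often each copy was detected in the clusters.

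By library, isl1 had 8.70 and 0 CPM in the cluster at 72 hpf and 66.6 and 108.7 CPM at 48 hpf, while the other cells had 4.73 and 9.66 CPM at 72 hpf and 19.1 and 7.15 CPM at 48 hpf. The marker thus had no UMI in the 72 hpf library of sqet33mi59BEt. The cluster's sum of 163145 UMIs there was too small to tell 0 UMIs from the level of the other cells. With 0 of 108 cells, a share of cells with a UMI of up to 3.36% is allowed (exact binomial interval). This does not limit the share of cells that express the gene. By contrast isl2b was above the other cells in 4 of 4 libraries, with 87.0 and 122.6 CPM at 72 hpf and 128.4 and 205.6 CPM at 48 hpf in the cluster, against 1.17 and 3.08 CPM and 7.88 and 5.17 CPM in the other cells. Of the 707 cells 106 (14.99%, 95% exact interval 12.4 to 17.8%) had a UMI of isl1, 194 (27.4%) of isl2a and 253 (35.8%, 32.2 to 39.4%) of isl2b, and 352 (49.8%) had any of the 3. In Erythrocytes, which should lack them, 0.798%, 0.508% and 0.435% of 1379 cells had a UMI of isl1, isl2a and isl2b, at median depths of 601 to 1029 UMIs per library. The intervals cover counting error only, and all these shares fall when each cell is thinned to 500 UMIs.

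**Figure D1:**
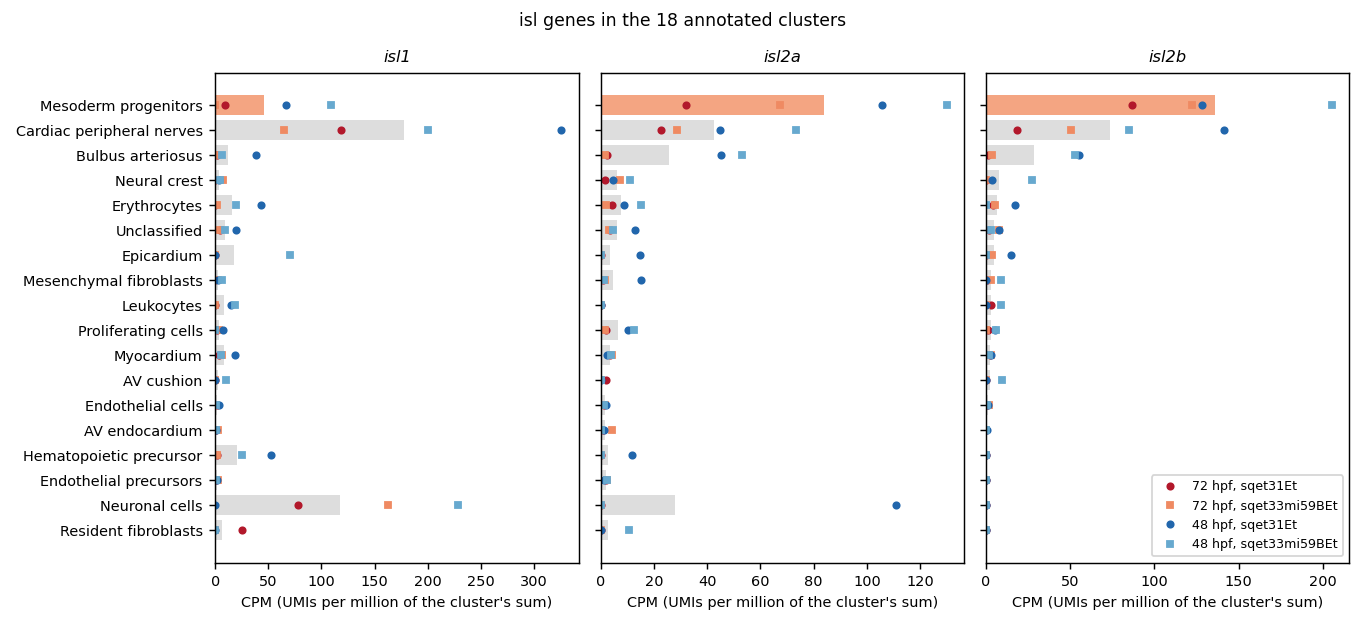
Level of isl1, isl2a and isl2b (x axis, CPM) in each of the 18 annotated clusters (y axis, ordered by the mean of isl2b), where bars are means over libraries and points are the 4 libraries. Mesoderm progenitors (orange bar) has the highest mean for isl2a (83.7 CPM) and isl2b (135.9 CPM), while for isl1 it comes after Cardiac peripheral nerves (177.5 CPM) and Neuronal cells (117.2 CPM).

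The comparison with all other annotated cells of the same library is a description without a test, since the cluster was drawn from the same genes. A gene is called higher or lower here where the fitted log2 fold of the cluster over the other cells was at least 1 in size and the CPM differed in that direction in 4 of 4 libraries. Of 12322 genes 659 (5.35%) were called higher and 2039 (16.5%) lower, 21.9% in all, and the median log2 fold was -0.10. Other tested genes of the cardiac progenitor list did not follow isl2a and isl2b. Of its 18 members 13 were matched to an identifier, and ldb1a, mef2ca, mef2cb, ltbp3 and fgf8a were not, so that these were not examined. Of the 13 only isl2a and isl2b were called higher. The genes hand2, gata4, gata5, gata6 and tbx20, which encode factors of the heart field and the myocardium, were called lower. For example gata5 had 43.5 and 36.8 CPM at 72 hpf and 32.9 and 36.03 CPM at 48 hpf in the cluster, against 111.7 and 111.7 CPM and 263.0 and 251.6 CPM in the other cells. For nkx2.5, the early cardiac homeobox gene, the cluster ranked 3 of 18 with a mean of 14.1 ± 9.47 CPM. Myocardium had 170.3 CPM and Resident fibroblasts 54.5 CPM, and Proliferating cells followed with 10.96 CPM. By library nkx2.5 had 5.80 and 6.13 CPM in the cluster at 72 hpf and 23.8 and 20.7 CPM at 48 hpf.

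Regulators of gut mesenchyme were higher in the cluster. All 7 markers of visceral mesenchyme and 11 of 14 factors of the longer list were called higher than in the other cells. The longer list had a median log2 fold of 4.60, and 5.35% of all genes were called higher. Both lists were chosen with earlier results of these data known, so these counts are a description and no independent support. The homeobox gene barx1 (ENSDARG00000007407), a regulator of foregut and pharyngeal mesenchyme, had 208.8 and 300.3 CPM at 72 hpf and 694.3 and 972.2 CPM at 48 hpf in the cluster, against 1.89 and 4.92 CPM and 17.9 and 12.1 CPM in the other cells. Over the clusters, Mesoderm progenitors had a mean of 543.9 CPM and the next cluster, Neural crest, one of 54.0 CPM. The forkhead gene foxf2a had 350.9 and 355.5 CPM at 72 hpf and 394.3 and 309.5 CPM at 48 hpf, against 2.88 to 12.05 CPM in the other cells. Its paralogue foxf1, which specifies splanchnic mesoderm in mice, had 84.1 and 147.1 CPM and 115.4 and 99.8 CPM, against 0.757 to 3.33 CPM. These forkhead genes had overlapping levels at both stages. They were detected in 358 (50.6%) and 262 (37.1%) of the 707 cells, against 0.798% and 0.145% of Erythrocytes. Bulbus arteriosus came next among the clusters, with 13.5 and 28.2 CPM of foxf2a at 72 hpf and 131.8 and 108.4 CPM at 48 hpf. Its foxf1 was at 1.28 and 7.06 CPM at 72 hpf and 38.4 and 22.1 CPM at 48 hpf. Neural crest had 14.1 and 21.6 CPM of foxf2a at 72 hpf and 84.4 and 80.1 CPM at 48 hpf.

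Among the other members, log2 folds over the other cells were 6.21 for pitx1, 5.58 for nkx3.3, 4.72 for nkx2.3, 4.48 for osr1, 3.83 for tcf21 and 3.69 for hlx1. Of these, nkx2.3 and nkx3.3 encode homeobox factors of gut and pharyngeal mesoderm and osr1 a zinc finger factor of intermediate and lateral mesoderm. The marker tcf21, a basic helix-loop-helix factor of epicardium and pharyngeal mesoderm, was highest in Epicardium with 369.0 ± 159.7 CPM and next in Mesoderm progenitors with 132.7 ± 83.9 CPM. All 3 epicardial markers tbx18, wt1b and tcf21 were called higher in the cluster. Of the defining markers of other tissues, 5 of 5 myocardial, 3 of 3 endothelial, 3 of 4 neuronal and 3 of 4 gut and pharyngeal endoderm markers were called lower. Markers of Bulbus arteriosus (0 of 3 called, median log2 fold 0.12) and cartilage (0 of 3 called, median 0.56) were called in neither direction, and of 4 paired fin bud markers 1 was called lower (median 0.44). The reporter EGFP was at 2.90 and 0 CPM at 72 hpf and at 0 and 0.591 CPM at 48 hpf, so that the enhancer trap label was near 0 in these cells.

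**Figure D2:**
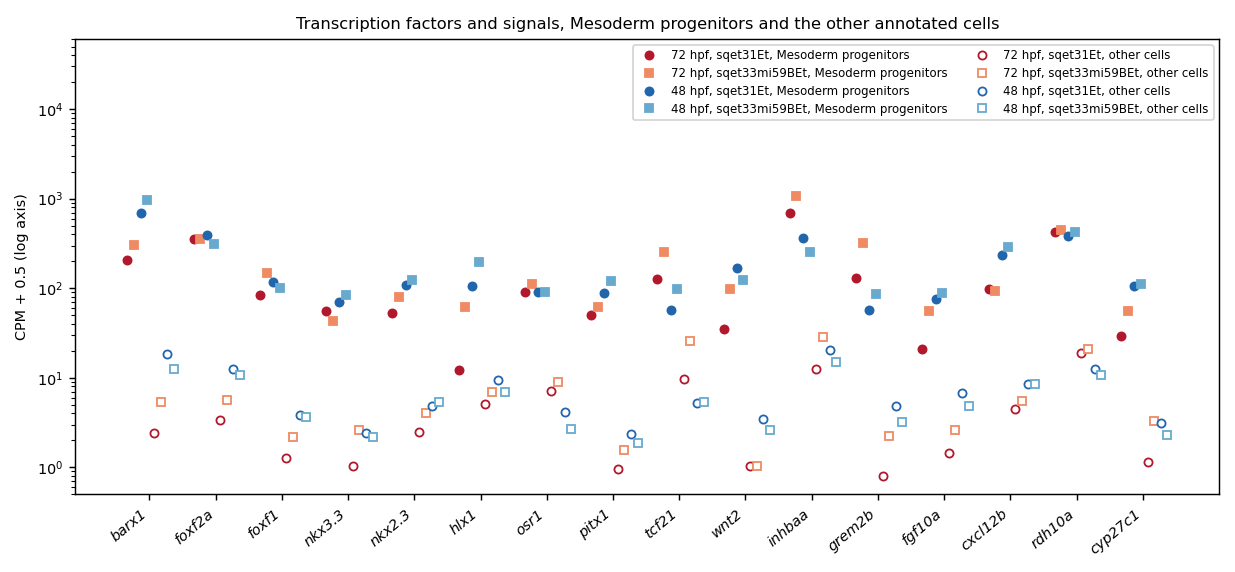
Levels of transcription factors and signals in each library (y axis, CPM + 0.5 on a log axis), with filled points for Mesoderm progenitors and open points for the other annotated cells of the same library. All 16 genes lie higher in Mesoderm progenitors in 4 of 4 libraries, and the levels of foxf2a, foxf1 and rdh10a in the cluster overlap between 72 hpf and 48 hpf.

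Hox genes, which record position along the body axis, were higher in the cluster mainly in the anterior and middle paralog groups. Of 27 tested members 18 were called higher and 0 lower, with a median log2 fold of 4.10, and these were 17 of 20 in groups 1 to 9 and 1 of 7 in groups 10 to 13. Summed over the 42 matched Hox genes, the cluster had 907.7 and 1434 CPM at 72 hpf and 1447 and 2025 CPM at 48 hpf, against 43.6 and 56.3 CPM and 124.9 and 124.3 CPM in the other cells. Of the Hox UMIs pooled over the 4 libraries, paralog groups 1 to 9 held 93.0% in the cluster and 67.4% in the other cells. The posterior groups 10 to 13 held 7.03% in the cluster and 32.6% in the other cells. In the cluster this pool is weighted toward 48 hpf, where its sums were larger. By library, groups 10 to 13 had 29.0 and 30.6 CPM at 72 hpf and 163.4 and 72.1 CPM at 48 hpf in the cluster. Within the anterior and middle groups the signal lay in a few genes. Group 3 had a mean of 461.0 CPM in the cluster and group 8 one of 406.0 CPM, whereas the 3 matched genes of group 4 had 8.498 CPM. Summed by the letter in the gene name, the hoxb genes had 745.7 CPM and the hoxc genes 458.6 CPM, against 36.1 and 8.45 CPM in the other cells. Of the 7 hoxd genes 0 were called higher.

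The genes behind these sums included hoxc8a, with 214.6 and 380.0 CPM at 72 hpf and 90.4 and 101.6 CPM at 48 hpf, and hoxb8a, with 81.2 and 67.4 CPM and 233.4 and 411.1 CPM. Neither exceeded 4.89 CPM in the other cells of any library. Partners that bind DNA together with Hox proteins were also higher, as 7 of 11 members of the Meis, Pbx and Pknox list were called higher, led by meis3 with a log2 fold of 5.11 and meis1a with 3.497. Over the 18 clusters, the genes whose mean levels followed isl2b most closely were hoxc5a (r = 0.991), hoxb5b (r = 0.980), kcnd3 (r = 0.970) and csmd2 (r = 0.967), all highest in Mesoderm progenitors. For isl1 the leading named genes were si:ch211-10a23.2 (r = 0.975) and plxna4 (r = 0.973), both highest in Cardiac peripheral nerves. These correlations are across 18 clusters of shared libraries and serve as descriptions.

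**Figure D3:**
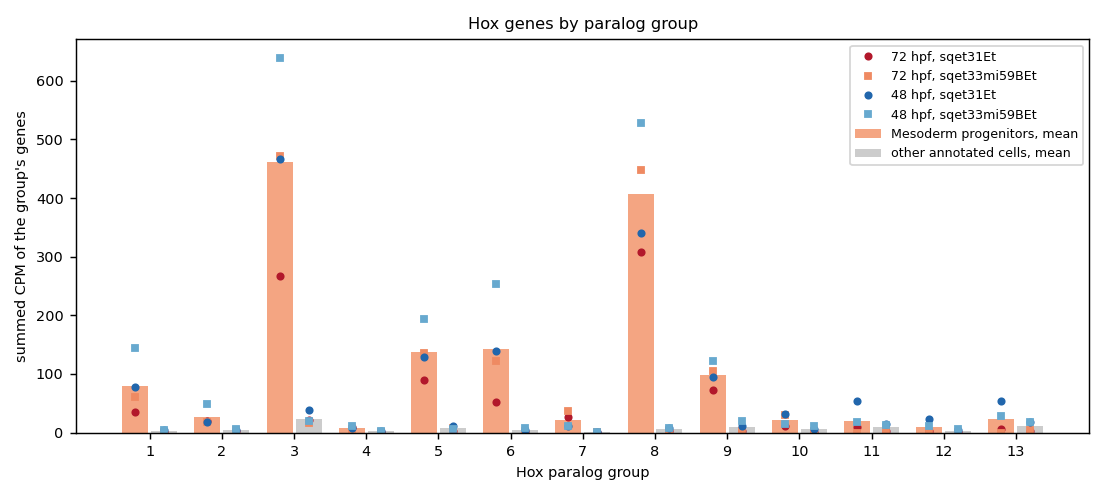
Summed CPM of the matched Hox genes of each paralog group (x axis, groups 1 to 13) in Mesoderm progenitors (orange bars) and in the other annotated cells (grey bars), with bars as means of the 4 libraries and points as single libraries. Groups 3 and 8 stand at 461.0 and 406.0 CPM in Mesoderm progenitors, and groups 10 to 13 lie at or below 22.3 CPM.

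Some genes of secreted signals were also higher in the cluster. The ligand gene wnt2, which is expressed in foregut mesoderm of mice, had 34.8 and 98.1 CPM at 72 hpf and 168.2 and 123.4 CPM at 48 hpf, against at most 2.95 CPM in the other cells. In the Wnt list 5 of 25 members were called higher and 3 lower, the higher ones including the agonists rspo1 and rspo3. The activin subunit gene inhbaa had 690.2 and 1073 CPM at 72 hpf and 366.6 and 251.0 CPM at 48 hpf, and the BMP antagonist gene grem2b 130.5 and 318.7 CPM and 56.6 and 86.8 CPM. In the BMP and activin list 10 of 24 members were called higher and 5 lower. For comparison, of all 12322 genes 5.35% were called higher and 16.5% lower. In the Fgf list 4 of 16 were called higher and 1 lower, the higher ones including the ligand gene fgf10a and the target genes etv5a and etv5b, and in the chemokine list 5 of 6, led by cxcl12b, the gene of a ligand of the receptor Cxcr4.

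Of 12 tested members of the Hedgehog pathway 5 were called higher and 0 lower, with a median log2 fold of 0.99. They included gli1, hhip, ptch1 and boc, with log2 folds of 3.201, 2.78, 2.61 and 1.08 in that order, of which gli1, ptch1 and hhip are known target genes of the pathway. In the retinoid pathway 7 of 19 were called higher and 2 lower, where 5.35% and 16.5% of all genes were. The retinol dehydrogenase gene rdh10a, which acts in the first step of retinoic acid synthesis, had 420.5 and 441.3 CPM at 72 hpf and 380.0 and 429.4 CPM at 48 hpf in the cluster, against 10.1 to 20.3 CPM in the other cells. The synthetic enzyme gene aldh1a2 had a log2 fold of 1.52, the degrading enzyme gene cyp26a1 of 3.58 and cyp27c1, which makes dehydroretinol, of 5.45. Thus genes for both the making and the breakdown of retinoic acid were higher than in the other cells.

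Across 12322 genes, the mean profile of the cluster was, among the named clusters, most like that of Bulbus arteriosus (Pearson r = 0.914 on log2(CPM + 1)), Neural crest (r = 0.907) and Proliferating cells (r = 0.853). The 15 genes with the largest log2 folds over the other cells were fbp2, csrp1b, hoxc8a, wnt2, pitx1, barx1, hoxb8a, grem2b, hoxc3a, hoxb9a, foxf2a, foxf1, nkx3.3, angptl5 and cyp27c1. Of these, fbp2, csrp1b and angptl5 owed their rank to the 72 hpf libraries, as their levels at 48 hpf were 0.432 and 0.591, 1.73 and 0.591, and 11.7 and 2.95 CPM.

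The second question was which genes differ between 72 hpf and 48 hpf within the cluster. Of 6517 genes tested, 498 (7.64%) were higher and 243 (3.73%) lower at 72 hpf with an adjusted p under 0.05 (edgeR quasi-likelihood test on the library sums, Benjamini-Hochberg adjustment). The median log2 fold of all genes was -0.06 with TMM factors and 0.20 with library totals, a shift of 0.25, and totals gave 628 higher and 147 lower genes. The share of higher calls was thus 67.2% with TMM factors and 81.0% with totals. Without the 72 hpf library of sqet31Et the calls were split into 338 higher and 325 lower, and without a library of 48 hpf into 305 and 144 (sqet31Et) or 271 and 123 (sqet33mi59BEt). Fewer cells of a kind and less RNA per cell cannot be told apart in such sums, and in a test on simulated counts of these libraries 50 of 97 genes with a 4-fold change were recovered but only 5 of 94 with a 2-fold change.

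At 72 hpf isl1, isl2a and several other regulators were lower. The marker isl1 fell by 4.13 ± 0.70 on the log2 scale (SE, adjusted p = 0.00121), and the pooled counts were 3 UMIs at 72 hpf and 338 UMIs at 48 hpf, so that the level at 48 hpf was 14.3 times that at 72 hpf (95% counting interval 4.85 to 69.6). All 3 UMIs were in the 72 hpf library of sqet31Et, so that without it no UMI of isl1 remained at 72 hpf and the fitted fold is no bound. Its paralogue isl2a fell by 1.63 ± 0.41 (adjusted p = 0.0185), a call that was lost without the 72 hpf library of sqet31Et (adjusted p = 0.104) or the 48 hpf library of sqet33mi59BEt (adjusted p = 0.0823) and with library totals (adjusted p = 0.0636). For isl2b the log2 fold was -0.98 ± 0.37 (adjusted p = 0.105), which is not past the threshold, although it was past it without the 48 hpf library of sqet31Et (adjusted p = 0.0269). The stage difference of isl1 was larger than that in the other cells of the same libraries by -3.26 ± 0.73 on the log2 scale, and this stage by cluster term was past the threshold, but not without the sqet33mi59BEt library of 72 hpf (adjusted p = 0.0613) or of 48 hpf (adjusted p = 0.287).

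Of 12 tested visceral mesenchyme factors, 2 fell and 0 rose, where 3.73% and 7.64% of all tested genes did. They were barx1, with a log2 fold of -2.02 ± 0.34 (adjusted p = 0.00108), and hlx1, a homeobox gene of gut and liver mesenchyme, with 11.6 and 61.3 CPM at 72 hpf and 104.6 and 196.7 CPM at 48 hpf and a log2 fold of -2.61 ± 0.57 (adjusted p = 0.00754). The level of barx1 was also lower at 72 hpf in the other cells, and its stage by cluster term was not past the threshold. That of hlx1 was -2.12 and past it, though not in each fit with 1 library left out. For foxf2a and foxf1 the log2 folds were -0.24 ± 0.29 and -0.22 ± 0.34, not past the threshold, and with library totals they were 0.022 and 0.062. Counts in the Hox family moved with the fit. Under DESeq2 2 of 39 tested genes fell and 0 rose, and with the cross as a block 10 of 23 fell and 1 rose. In the main fit 5 of 23 fell and 1 rose. The 5 were hoxa13b, hoxb8a, hoxb3a, hoxb5a and hoxb6a, for example hoxb8a with a log2 fold of -2.35 ± 0.40 (adjusted p = 0.00134), whereas hoxc8a rose by 1.32 ± 0.32 (adjusted p = 0.0158). The summed Hox genes also fell in the other cells, from 124.9 and 124.3 CPM at 48 hpf to 43.6 and 56.3 CPM at 72 hpf. Of 35 Hox genes 0 had a higher and 1 a lower stage difference than in the other cells, where 2.87% and 2.1% of all genes did. The median of the 35 was 0.55, and it turned to -0.84 without the 72 hpf library of sqet31Et. For hoxb8a this stage by cluster term was not past the threshold. The call on hoxc8a was not past the threshold without the 72 hpf library of sqet33mi59BEt (adjusted p = 0.0688) or the 48 hpf library of sqet31Et (adjusted p = 0.108), nor with DESeq2 (0.0613) or without a filter (0.0714). The calls on hoxb5a and hoxb6a were lost with library totals (adjusted p = 0.0748 and 0.111), with DESeq2 (0.0622 and 0.0653), without the 48 hpf library of sqet33mi59BEt (0.0648 and 0.329) and without the 72 hpf library of sqet31Et (0.217 and 0.126).

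For the 8 genes with the smallest fitted log2 folds no UMI was counted at 72 hpf. These were zgc:153405, hbbe3, histh1l3, meox1, prrx1b, six1a, si:dkey-108k21.25 and 1 gene without a name, and their folds are bounds against a floor of 3 counts over the 2 libraries. The somite regulator meox1 had 28.1 and 30.1 CPM at 48 hpf and was at least 4.90-fold lower at 72 hpf. The limb and pharyngeal mesenchyme gene prrx1b had 14.3 and 35.4 CPM at 48 hpf and was at least 3.93-fold lower, and six1a, of the muscle and placode lineages, had 17.3 and 25.4 CPM and was at least 3.51-fold lower. Also lhx2b fell, with 1 UMI at 72 hpf and 146 UMIs at 48 hpf, a ratio of 18.5 in favour of 48 hpf (95% counting interval 3.27 to 736).

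Genes of smooth muscle contraction were higher at 72 hpf. Of 20 members of the list 11 were matched to an identifier, and the smooth muscle markers myh11a and cnn1b were not. Of 10 tested members 8 rose and 0 fell, with a median log2 fold of 4.47. Smooth muscle actin, acta2 (ENSDARG00000045180), had 1731 and 2268 CPM at 72 hpf and 13.4 and 5.91 CPM at 48 hpf (log2 fold 7.39 ± 0.43, adjusted p = 5.8e-08). The gene of transgelin, tagln, an early actin-binding protein of smooth muscle, had 1554 and 1385 CPM at 72 hpf and 5.19 and 4.73 CPM at 48 hpf (log2 fold 7.94 ± 0.42, adjusted p = 3.6e-08). The caldesmon gene cald1b had 321.9 and 422.9 CPM, against 0.865 and 1.77 CPM. The groups did not overlap for any of these, and myl9a, tpm1, tpm2, smtna and mylka, which encode a myosin light chain, tropomyosins, a smoothelin and a myosin light chain kinase, rose by 4.51, 5.24, 4.42, 3.52 and 2.43 on the log2 scale. The call on smtna was lost without the 48 hpf library of sqet31Et (adjusted p = 0.191) or of sqet33mi59BEt (0.215). Markers of other cell types moved with these genes in the cluster, as the 3 markers of Bulbus arteriosus summed to 237.8 and 416.8 CPM at 72 hpf and 49.7 and 30.7 CPM at 48 hpf, with 2 of 2 tested called higher, and all 3 are also members of the matrix list. The 3 epicardial markers summed to 356.7 and 441.3 CPM at 72 hpf and 85.6 and 122.9 CPM at 48 hpf, with 1 of 2 tested called higher. In the other cells these sums were 361.4 and 297.0 CPM at 72 hpf and 51.7 and 33.1 CPM at 48 hpf for Bulbus arteriosus markers, and 64.2 and 76.4 CPM at 72 hpf and 16.1 and 16.6 CPM at 48 hpf for epicardial markers. The part of such cells in the contractile and matrix differences was not tested.

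In the pooled other cells the contractile genes did not change alike. There acta2 had 37.0 and 33.7 CPM at 72 hpf and 125.1 and 32.4 CPM at 48 hpf, and tagln 25.0 and 18.1 CPM and 32.7 and 11.8 CPM. Single clusters differed from this pool, as Bulbus arteriosus had 242.9 and 185.3 CPM of acta2 at 72 hpf and 15.01 and 8.85 CPM at 48 hpf, and 157.6 and 97.0 CPM of tagln at 72 hpf and 23.4 and 11.1 CPM at 48 hpf. Neural crest had 35.2 and 35.97 CPM of acta2 at 72 hpf and 2.34 and 4.18 CPM at 48 hpf. The stage by cluster term was past the threshold for 7 of 11 members, all higher, with 8.46 ± 0.31 for acta2 and 7.94 ± 0.35 for tagln. Over all genes 409 of 14247 (2.87%) had a higher and 299 (2.1%) a lower stage difference in the cluster than in the other cells, 4.97% in all. These counts were 224 and 153 without the 48 hpf library of sqet33mi59BEt, 229 and 202 without the 72 hpf library of sqet31Et, 312 and 195 without the 48 hpf library of sqet31Et and 316 and 127 without the 72 hpf library of sqet33mi59BEt. At 72 hpf 87 of 230 cells (37.8%) had a UMI of acta2 and 80 (34.8%) one of tagln, against 15 (3.14%) and 7 (1.47%) of 477 cells at 48 hpf, although the 48 hpf cells were deeper. In Erythrocytes at 72 hpf the shares were 3.35% and 2.27%.

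Genes of glycolysis were higher at 72 hpf as well. Of 14 tested members 10 rose and 0 fell, with a median log2 fold of 3.85, and 11 of 20 had a higher stage difference than in the other cells. The glyceraldehyde-3-phosphate dehydrogenase gene gapdhs had 4263 and 11597 CPM at 72 hpf and 291.8 and 238.0 CPM at 48 hpf (log2 fold 4.60 ± 0.44), and the muscle enolase gene eno3 4585 and 6865 CPM and 349.7 and 212.6 CPM (4.09 ± 0.36). The aldolase gene aldocb and the pyruvate kinase gene pkma rose by 4.97 ± 0.39 and 5.93 ± 0.39. The largest fitted stage difference of all was in fbp2 (ENSDARG00000012366), the muscle fructose-1,6-bisphosphatase gene, whose product acts in the reverse direction to glycolysis. It had 4962 and 14459.5 CPM at 72 hpf, that is 1711 and 2359 UMIs, against 1 UMI in each 48 hpf library. The gene csrp1b, of a LIM protein of smooth muscle in mammals, had 530.7 and 784.6 CPM at 72 hpf and 1.73 and 0.591 CPM at 48 hpf (log2 fold 8.67 ± 0.47).

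**Figure D4:**
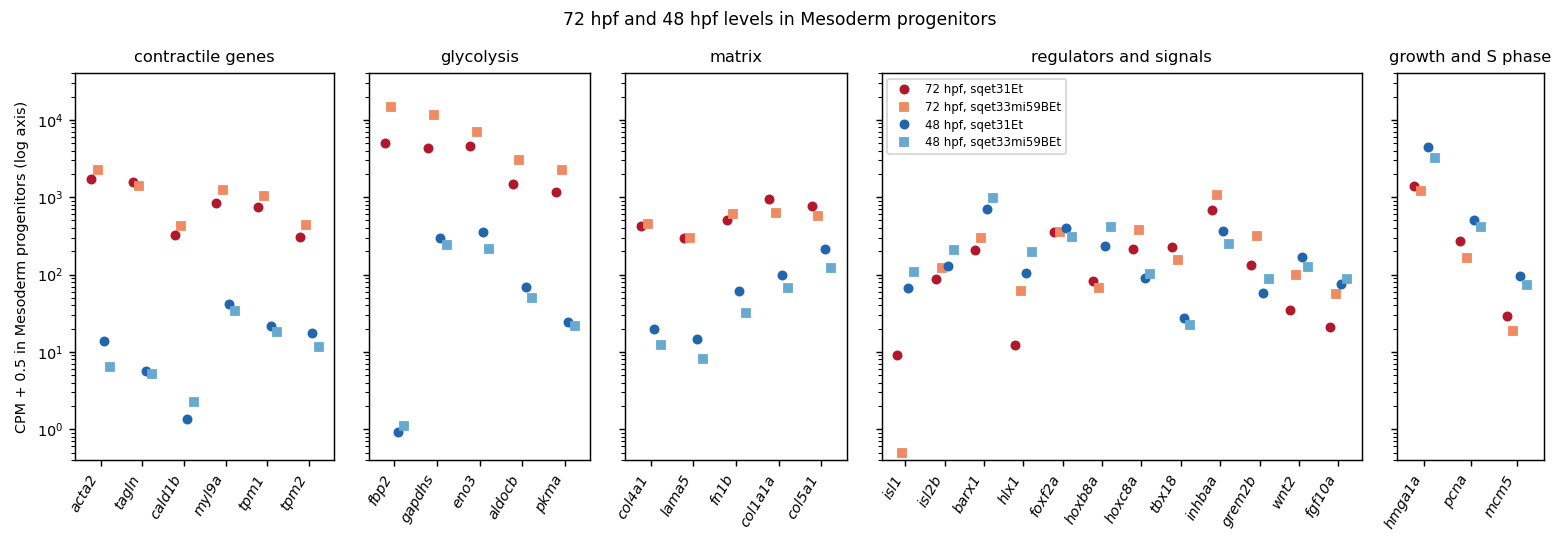
Levels in Mesoderm progenitors at 72 hpf (red and orange) and 48 hpf (dark and light blue) in each library, as CPM + 0.5 on a log axis, for genes of contraction, glycolysis, matrix, regulation and growth. The 72 hpf libraries lie above both 48 hpf libraries for every gene shown in the contractile, glycolysis and matrix panels. They lie below them for genes that include isl1, isl2b, barx1, hlx1, hoxb8a, wnt2, hmga1a, pcna and mcm5, although the stage difference of isl2b was not past the threshold. The glycolysis panel also holds fbp2, whose product acts in the reverse direction.

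The cells of 72 hpf did not share these genes evenly. Of the 230 cells, 34 had at least 3 UMIs of fbp2, 10 of 122 in sqet31Et and 24 of 108 in sqet33mi59BEt, and they held 99.9% of its UMIs, while no cell had more than 1 at 48 hpf. The same 34 cells held 85.8% of the gapdhs, 91.1% of the eno3, 87.0% of the aldocb and 85.7% of the pkma UMIs of the 72 hpf cells. They held 48.5% of the acta2 and 49.6% of the tagln UMIs, and acta2 was detected in 34 of 34 of them and in 53 of the remaining 196 cells. The cut of 3 UMIs was chosen after the values were seen, and no test is given. Since the cut is on fbp2 itself, the share of fbp2 UMIs in these cells is no separate result. These cells were deeper in sqet31Et, with a median of 6588 UMIs against 2082.5 UMIs in the remaining cells, and in sqet33mi59BEt, with 1844.5 against 1192 UMIs.

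Without these 34 cells, the difference in contraction remained and that in glycolysis shrank. The summed contractile genes had 4682 and 5599 CPM in the remaining 72 hpf cells, against 419.8 and 286.5 CPM at 48 hpf, a ratio of 14.6, where all 72 hpf cells gave 5977 and 7564 CPM and a ratio of 19.2. The summed glycolysis genes had 3810 and 4720 CPM in the remaining cells, against 1753 and 1432 CPM at 48 hpf, a ratio of 2.68, where all cells gave 15933 and 34638 CPM and a ratio of 15.9. For grem2b the direction turned. It had 17.8 and 8.89 CPM in the remaining 72 hpf cells, against 56.6 and 86.8 CPM at 48 hpf, as 93.8% of its 72 hpf UMIs lay in the 34 cells. Likewise hoxc8a had 138.9 and 124.4 CPM in the remaining cells, against 90.4 and 101.6 CPM at 48 hpf, so that its ratio was 1.37 without the 34 cells and 3.10 with them.

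The cells with fbp2 carried some regulators of the cluster. They had 860.1 and 454.2 CPM of foxf2a and 265.8 and 158.0 CPM of isl2b, where the remaining cells had 235.0 and 311.1 CPM of foxf2a and 46.3 and 106.7 CPM of isl2b. The isl2b level rested on 8 of the 34 cells, against 17 of the 196. Pooled over both libraries, hoxb8a had 61.1 CPM in the 34 cells and 81.3 CPM in the 196, and tcf21 165.8 and 165.2 CPM. Other genes were rare or absent in the 34 cells. No UMI of tbx18, a T-box gene of epicardium and mesothelium, was counted in them, against 33 of the remaining 196 cells with a UMI, and lama5 and rdh10a were detected in 1 and 6 of the 34, against 45 and 74 of the 196. Thus most 72 hpf UMIs of gapdhs, eno3, aldocb and pkma lay in the 34 cells of the cluster that were picked by fbp2. Most of those of tbx18, lama5 and rdh10a lay in the remaining 196, while acta2 and tagln were found in both sets of cells. At lower levels gapdhs was also detected in 94 and eno3 in 72 of the 196 cells.

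**Figure D5:**
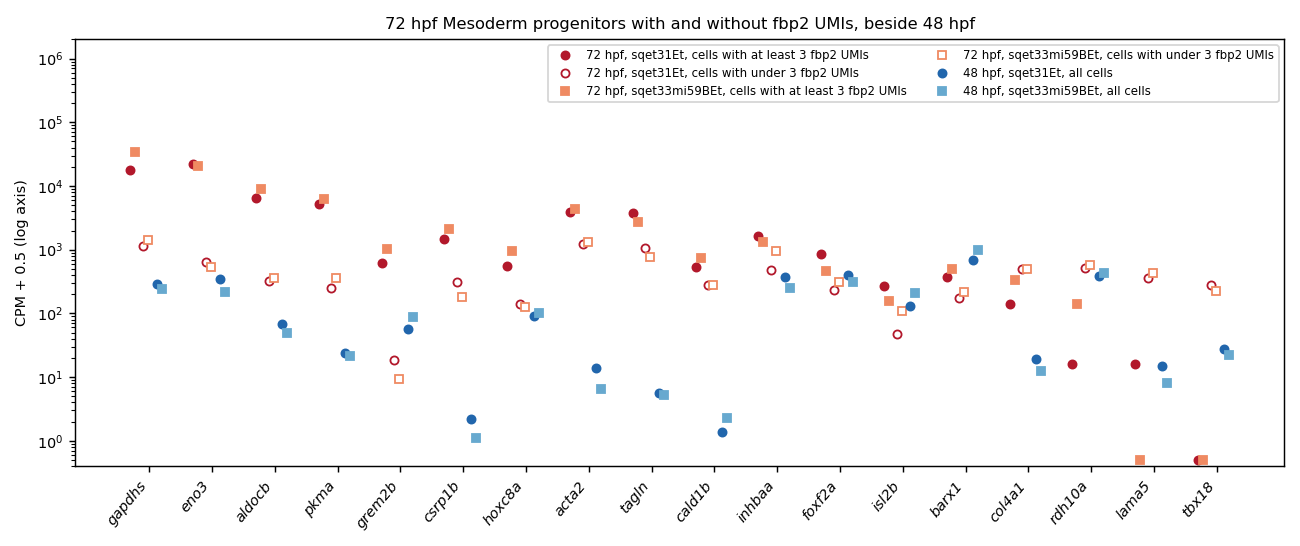
Levels (CPM + 0.5 on a log axis) in the 34 cells of 72 hpf with at least 3 fbp2 UMIs (filled red and orange), in the remaining 196 cells of 72 hpf (open) and in all 48 hpf cells (blue), by library. The first 5 genes, with gapdhs to grem2b, are highest in the cells with fbp2, while tbx18 is at 0 CPM in them and at 274.1 and 222.2 CPM in the remaining cells.

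In all 72 hpf cells, a UMI of acta2, tagln or fbp2 was found in 101 of 230 (43.9%), against 20 of 477 (4.19%) at 48 hpf. Of these 101 cells 65.3% had a UMI of foxf1 or foxf2a, against 20.2% of the 129 cells without such a UMI. The median depths of these 101 and 129 cells were 1944 and 1499 UMIs. After thinning to 500 UMIs both groups were redrawn from the thinned counts. A UMI of acta2, tagln or fbp2 was then left in 36.96% of the 230 cells, 30.3% in sqet31Et and 44.4% in sqet33mi59BEt. In these smaller groups and the cells outside them the foxf shares were 29.4% and 10.3%. By library the thinned shares were 13.5% and 10.6% in sqet31Et and 41.7% and 10% in sqet33mi59BEt. The difference after thinning thus lay mainly in sqet33mi59BEt. At 48 hpf barx1 was found in 228 of 310 cells with an Isl UMI (73.5%) and in 55 of 167 cells without one (32.9%), at median depths of 8996 and 8350 UMIs. Isl and gut mesenchyme genes were therefore found in the same cells at 48 hpf more often than in cells without an Isl UMI, which is a description over cells and not a test over libraries.

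Matrix genes rose with stage more widely. Of 48 tested members 29 rose and 1, loxl2a, fell, with a median log2 fold of 1.82. The basement membrane collagen gene col4a1 had 429.2 and 447.5 CPM at 72 hpf and 19.0 and 11.8 CPM at 48 hpf (log2 fold 4.56 ± 0.35), and the laminin gene lama5 295.8 and 300.3 CPM and 14.3 and 7.68 CPM (4.49 ± 0.37). The fibronectin gene fn1b rose by 3.36 ± 0.34, and the collagen VI genes col6a1 and col6a2 by 2.35 ± 0.34 and 3.08 ± 0.39. The sum of the list was also higher at 72 hpf in the other cells, at 5516 and 5697 CPM against 3615 and 3857 CPM at 48 hpf. The stage by cluster term was past the threshold for 20 of 55 members as higher and for 3 as lower, with a median of 0.78. In the 72 hpf cells with under 3 fbp2 UMIs the sum of the list was 16324 and 15109 CPM, against 5120 and 4399 CPM at 48 hpf, so that this difference did not rest on the 34 cells. One cartilage gene did rest on a single library, as col2a1a had 292.9 CPM in the sqet31Et library of 72 hpf and 12.3 CPM in that of sqet33mi59BEt, against 11.2 and 10.6 CPM at 48 hpf. Its log2 fold of 3.76 (adjusted p = 0.00343) turned to -0.26 without that library (adjusted p = 0.958) and was not past the threshold with DESeq2 (0.320).

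Signals differed in both directions. The ligand genes wnt11, cxcl14 and cxcl18b rose by 2.92 ± 0.40, 3.59 ± 0.44 and 2.06 ± 0.34, and hhip, a Hedgehog antagonist, by 1.96 ± 0.42. The genes inhbaa and grem2b rose by 1.24 ± 0.30 (adjusted p = 0.0158) and 1.29 ± 0.40 (adjusted p = 0.0486). For inhbaa the call was lost without either 48 hpf library (adjusted p = 0.0511 without sqet31Et and 0.209 without sqet33mi59BEt), with thinned cells (0.191) and without a filter (0.0856). For grem2b it was lost without the 48 hpf library of sqet31Et (0.214) or the 72 hpf library of sqet33mi59BEt (0.323), with DESeq2 (0.190), with RLE factors (0.0517) and without a filter (0.103). By contrast cxcl12b fell by 1.69 ± 0.34, the Fgf feedback gene dusp6 by 1.76 ± 0.38 and the BMP target gene id1 by 1.52 ± 0.34. With cells thinned to 500 UMIs these 3 calls were lost, with log2 folds of -0.48 (adjusted p = 0.552) for cxcl12b, -0.90 (0.314) for dusp6 and -0.92 (0.0979) for id1, and that on id1 was also lost without the 48 hpf library of sqet33mi59BEt (0.152). Both wnt2 and fgf10a fell, by 1.54 ± 0.40 (adjusted p = 0.0239) and 1.55 ± 0.45 (adjusted p = 0.0393), but without the 72 hpf library of sqet31Et their adjusted p was 0.181 and 0.267. The call on wnt2 was also lost without the 48 hpf library of sqet31Et (0.0521), with library totals (0.0889) and with thinned cells (0.165), and that on fgf10a without the 48 hpf library of sqet33mi59BEt (0.140), with library totals (0.122) and with DESeq2 (0.126).

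In the retinoid list the enzyme gene cyp27c1, the binding protein gene crabp2b and the receptor gene nr2f2 fell, and rbp4, a plasma carrier made by the liver, rose. Without the 48 hpf library of sqet33mi59BEt the calls on nr2f2 (adjusted p = 0.105) and rbp4 (0.275) were lost, and without the 72 hpf library of sqet31Et that on cyp27c1 (0.0737). The other rises of this kind were shared with the other cells. Of 3 liver markers 3 rose, for example fabp10a with 200.1 and 159.4 CPM at 72 hpf and no UMI at 48 hpf, at least 249.7-fold higher, while the other cells had 292.3 and 426.2 CPM at 72 hpf and 0.674 and 0.162 CPM at 48 hpf. The trypsin gene prss59.2, serpina1l and apcs followed the same pattern. Liver markers summed to 1015 and 1453 CPM at 72 hpf and 11.2 and 4.73 CPM at 48 hpf in the cluster, and their part in the other stage differences was not tested. By contrast col6a4b, a collagen VI gene, had 46.4 and 128.7 CPM at 72 hpf in the cluster and at most 0.703 CPM in the other cells, and was at least 97.3-fold higher at 72 hpf.

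Genes of growth and DNA replication were lower at 72 hpf. Of 14 tested early growth genes 6 fell and 1, mycb, rose. The chromatin gene hmga1a had 1401 and 1201 CPM at 72 hpf and 4503 and 3201 CPM at 48 hpf (log2 fold -1.80 ± 0.32), and the stem cell factor gene sall4 43.5 and 49.0 CPM and 181.1 and 114.6 CPM. Of 30 tested S phase genes 8 fell and 0 rose, among them mcm5 (log2 fold -1.94 ± 0.44) and pcna (-1.27 ± 0.33, adjusted p = 0.0239). The call on pcna was lost without the 48 hpf library of sqet31Et (adjusted p = 0.0632) or the 72 hpf library of sqet33mi59BEt (adjusted p = 0.109), with library totals (0.0528) and with thinned cells, where the log2 fold was -0.45 (adjusted p = 0.486). In the G2M list 0 of 39 rose and 1 fell, where 7.64% and 3.73% of all tested genes did. Against the other cells 17 of 40 G2M and 0 of 35 S phase genes were called higher, where 5.35% of all genes were.

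The deposited phase calls were lower at 72 hpf for S phase. In S phase were 18.03% and 10.2% of the 72 hpf cells and 35.4% and 34.4% of the 48 hpf cells, with no overlap (exact permutation test, two-sided, p = 0.333, the smallest that 2 against 2 libraries allow). In G2M were 35.2% and 38.0% at 72 hpf and 38.1% and 26.8% at 48 hpf (exact permutation test, p = 1). In the other cells the S shares were 23.1% and 21.2% at 72 hpf and 18.4% and 20.1% at 48 hpf. The S phase list took 12.04 and 8.95 of 10000 UMIs at 72 hpf, against 23.7 and 20.5 at 48 hpf. Among the other cells it took 12.2 and 13.9 at 72 hpf and 11.8 and 11.9 at 48 hpf. The S phase list was thus above the other cells at 48 hpf only. For the G2M list the cluster had 24.8 and 18.1 at 72 hpf, against 24.5 and 17.5 at 48 hpf. The other cells had 8.94 and 11.1 at 72 hpf and 11.2 and 11.4 at 48 hpf. Free RNA and depth enter the calls as well, and their part was not tested.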

How the data were processed

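Cells of whole hearts from 4 pools were captured with the 10x Chromium 3′ chemistry, and the authors mapped reads with Cell Ranger to GRCz11. The deposited matrices hold raw UMI counts per gene and cell, which are not normalized. The authors clustered cells with Seurat after filters of 200 to 2500 genes, under 30% mitochondrial and under 10% hemoglobin reads, and removal of doublets. The deposited metadata give the annotation, library and cell cycle phase of each cell as text labels, and the mitochondrial share as a percent that the authors computed.

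Raw counts were summed per library over the annotated Mesoderm progenitors and over all other annotated cells, which gave 163145 to 2313184 UMIs per sum of the cluster. Stage differences were tested on the 4 sums of the cluster, and the stage by cluster term on 8 sums with the library as a block, with edgeR 4.0.16 in R 4.3.3 (filterByExpr, TMM factors, quasi-likelihood test, Benjamini-Hochberg adjusted p under 0.05). The cluster against the other cells was fitted in the same way and carries no test. The 2 stages of a cross came from different pools, so libraries were not treated as paired. CPM are UMIs per 1000000 of a sum, and detection shares carry exact binomial intervals. Alternatives were other scaling, DESeq2 1.42.0, no filter, cells thinned to 500 UMIs, the cross as a block and leaving out each library.

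Gene identifiers were named through the reference name tables, in which 11653 carried a symbol of their own and 8028 were the only copy left to match. For 168 more, among them isl2a, isl2b, tagln, aldocb, pkma, inhbaa, grem2b, fgf10a and rdh10a, the copy was chosen by comparing its detection shares over clusters with the marker tables of the study, and 18 names that lay over 0.1 from these shares were taken back. These names are therefore less certain. The marker ldb1a was not matched to 1 identifier and is not analysed here. Named genes are markers of the study, the list members with the largest fold or highest level, the 15 genes with the largest fold over the other cells among those with at least 50 UMIs, 20 CPM and a higher level in 4 of 4 libraries, the 8 with the largest and 8 with the smallest log2 stage difference past the threshold, and the genes and clusters most correlated with isl1, isl2b and the cluster. Other genes were named after their values were seen. The members and lists were chosen with earlier results of these data known.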

Additional observations from a re-analysis of the deposited data

Results flagged for a closer look

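For 409 genes the stage difference was higher in Mesoderm progenitors than in the other annotated cells, and for 299 genes it was lower, each by the edgeR test of the stage by cluster term. Among the genes described above, the log2 stage difference (72 hpf over 48 hpf) in the cluster minus that in the other cells was 8.46 for acta2, 7.94 for tagln, 4.21 for cald1b, 6.004 for fbp2 and 4.56 for csrp1b. It was 4.24 for gapdhs, 4.54 for eno3, 5.56 for pkma and 3.68 for aldocb. For matrix genes it was 4.49 for col4a1, 3.35 for lama5 and 10.65 for col6a4b, the last being a fitted value of a gene with no UMI in the cluster at 48 hpf and therefore no bound. For signals it was 1.09 for inhbaa, 3.32 for grem2b, 2.02 for cxcl14, 2.42 for wnt11 and 1.58 for hhip. It was lower than in the other cells for isl1 (-3.26), hlx1 (-2.12), hmga1a (-1.10), pcna (-1.31) and meox1 (-10.05), the last again a fitted value of a gene with no UMI in the cluster at 72 hpf. With 1 library left out, the term was not past the threshold in at least 1 of the 4 fits for isl1, hlx1, cald1b, inhbaa, cxcl14, pcna, hhip, fbp2 and csrp1b, and in 4 of 4 fits for col6a4b and meox1.

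Barcodes that carried no annotation and so entered no comparison also carried genes of visceral mesenchyme. The metadata give all of them the doublet mark, although the study also removed barcodes by gene number and by mitochondrial and hemoglobin share. The mark therefore does not tell which filter removed a barcode without an annotation. A UMI of at least 3 of the 7 visceral mesenchyme markers was found in 389 of 17771 such barcodes (2.189%), against 288 of 707 cells of the cluster (40.7%) and 46 of 33969 other annotated cells (0.135%). By library they were 43 and 21 at 72 hpf and 108 and 217 at 48 hpf, and 244 of the 389 had over 2500 genes, the upper limit of the study's filter.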

How the results depend on the processing

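Counts of stage calls within the cluster (498 higher and 243 lower) moved with depth, tool and library. Genes higher at 72 hpf were 316 with DESeq2, 135 with cells thinned to 500 UMIs and 271 to 433 when each library was left out in turn. Genes lower were 34 with thinned cells, 147 with library totals, 626 without a filter and 123 to 325 with each library left out. With the cross as a replicate block 634 genes were higher and 385 lower, and 722 of the 741 calls were shared. Deviations of same-cross libraries from the stage means correlated at 0.0997 over 6517 genes. The stage by cluster counts (409 higher and 299 lower) were 224 to 316 and 127 to 202 with each library out, and 98 were lower with library totals. Genes called higher than in the other cells (659) were 286 with thinned cells, 397 against the unweighted mean of the other 17 clusters and 719 to 1087 with each library out, where the call needs 3 libraries only. The 1087 were without the 72 hpf library of sqet33mi59BEt. The median over the other clusters gives no test and so no count for the stage by cluster term.

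Some directions turned. Against the unweighted mean of 17 clusters the log2 fold of isl1 was -0.74. With each library left out, stage by cluster values that were not past the threshold ranged from -0.29 to 0.77 for barx1, -1.08 to 0.045 for hoxb8a, -0.17 to 1.27 for wnt2 and -0.12 to 0.65 for fgf10a. They turned to -0.29 and -0.26 for barx1 without the sqet31Et library of 48 and of 72 hpf, and to 0.03 and 0.045 for hoxb8a without that of sqet33mi59BEt. The stage log2 folds of foxf1 and foxf2a, not past the threshold, turned to 0.062 and 0.022 with library totals, and with each library left out that of foxf1 ranged from -0.52 to 0.024 and that of col2a1a from -0.26 to 4.57. The calls on hoxa13b, lhx2b and six1a were not past the threshold with DESeq2 (adjusted p = 0.0518, 0.0576 and 0.0563). The G2M share of 72 hpf minus 48 hpf ranged from -1.49 to 9.83 percentage points, and the difference in median genes per cell, -1156, was 26.5 after thinning. Shares of cells with a UMI were lower in thinned cells and with a minimum of 2 UMIs, at 2.97% and 10.3% for isl1, 4.24% and 15.1% for isl2a, 5.66% and 21.8% for isl2b, 19.5% and 39.6% for barx1, 6.36% and 17.8% for foxf1, and 14.99% and 36.9% for foxf2a. The cause of these changes was not tested.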

Other observations

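Ribosomal protein genes were a group whose count of stage calls depended on the scaling. Of 77 tested genes 14 fell and 1 rose at 72 hpf in the cluster, with a median log2 fold of -0.85, and with library totals 29 fell and 2 rose, with a median of -0.57. Against the other cells 70 of 77 had a lower stage difference with TMM factors (median -0.64) and 9 of 77 with library totals (median -0.32). The direction of the median was the same in every alternative run, and the count of genes that fell ranged from 0 to 22 with each library left out and was 3 with the cross as a block, 43 with DESeq2 and 57 without a filter.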
